A study of Mus musculus with 4 samples.

Results

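The genes described here encode 9 transcription factors of the pancreatic beta cell: Pdx1, Mafa, Nkx6-1, Nkx2-2, Neurod1, Isl1, Pax6, Rfx6 and Foxa2. They were taken as the array probes whose transcript accession maps to these symbols, 14 probes of 56605 in all, and all 9 genes were among the 26378 that passed the filter on dim probes. Every one of the 14 probes was well above background on all 4 arrays. RNA of islets, the endocrine clusters of the pancreas, was measured on 1-colour Agilent arrays, 1 mouse per array. The 2 control mice, labelled wild type, carried the Pdx1-Cre transgene, and the 2 Rb-deficient mice carried Pdx1-Cre with floxed Rb alleles (Pdx1-Cre:Rbf/f), so both groups held the Cre. Pdx1-Cre is driven by the promoter of Pdx1, itself one of the genes described, and is active across the pancreatic lineage rather than in beta cells alone. The labels used here give no strain, age or sex.

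Beta cells are kept distinct by a network of factors that bind each other's genes and the insulin genes. Foxa2 is a forkhead factor that opens chromatin in the early pancreas, and Pdx1 is a homeodomain factor needed for the pancreas to form and later bound at the insulin promoter. Nkx2-2, Neurod1, Isl1, Pax6 and Rfx6 act in several endocrine cell types, whereas in the adult mouse islet Nkx6-1 and Mafa are largely restricted to beta cells. The deleted gene encodes Rb, a pocket protein that holds E2F factors in check, and the comparison asks how islet expression differs without it.

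Promoter sequence from RefSeq (GRCm38.p6, 250 bases before to 50 after a gene's start) was found for 8 of the 9 genes, in 11 windows, and for Ins1. Mafa and Ins2 had no entry. Ins1 is shown as a target that several of these factors bind, Pdx1 as the gene whose mean differed most, Isl1 as the gene whose probes disagreed, and Rfx6 as the window with the most TAAT cores, 5. Capitals mark TAAT, the core letters of homeodomain sites, and CANCTG, on either strand, and matches may overlap. CANCTG covers only part of the E box letters CANNTG. Other forms, such as CACGTG in the Pdx1 window, were not searched and are in lower case.
Ins1: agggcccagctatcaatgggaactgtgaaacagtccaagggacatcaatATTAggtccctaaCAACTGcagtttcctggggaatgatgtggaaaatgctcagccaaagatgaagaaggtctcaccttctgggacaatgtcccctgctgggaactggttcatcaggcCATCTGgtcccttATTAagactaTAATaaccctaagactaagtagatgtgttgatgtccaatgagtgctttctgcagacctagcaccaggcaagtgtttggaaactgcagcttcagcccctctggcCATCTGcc
Pdx1: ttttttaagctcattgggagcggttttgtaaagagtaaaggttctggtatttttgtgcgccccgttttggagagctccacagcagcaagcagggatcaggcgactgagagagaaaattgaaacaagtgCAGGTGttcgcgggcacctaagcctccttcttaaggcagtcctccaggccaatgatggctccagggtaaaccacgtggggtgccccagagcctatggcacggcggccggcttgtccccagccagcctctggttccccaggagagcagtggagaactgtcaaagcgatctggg
Isl1: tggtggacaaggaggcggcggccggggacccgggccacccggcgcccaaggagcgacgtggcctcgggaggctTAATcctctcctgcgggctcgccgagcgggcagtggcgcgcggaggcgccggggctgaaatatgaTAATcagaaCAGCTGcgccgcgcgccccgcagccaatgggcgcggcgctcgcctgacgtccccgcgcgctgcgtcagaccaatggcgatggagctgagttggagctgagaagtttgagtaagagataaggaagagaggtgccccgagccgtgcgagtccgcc
Rfx6: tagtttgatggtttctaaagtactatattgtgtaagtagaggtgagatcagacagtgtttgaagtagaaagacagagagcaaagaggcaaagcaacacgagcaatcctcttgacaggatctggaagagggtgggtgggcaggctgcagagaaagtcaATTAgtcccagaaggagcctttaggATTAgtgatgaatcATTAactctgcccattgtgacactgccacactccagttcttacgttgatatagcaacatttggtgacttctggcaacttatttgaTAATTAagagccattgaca
The windows lie at chr19:52264047-52264346 on the plus strand for Ins1, chr5:147269847-147270146 on the plus strand for Pdx1, chr13:116309639-116309938 on the minus strand for Isl1 and chr10:51685268-51685567 on the plus strand for Rfx6. Ins1 held 3 TAAT cores and 3 CANCTG matches, Pdx1 held 1 CANCTG match, and Isl1 held 2 TAAT cores and 1 CANCTG match. Of the 11 windows of the factor genes, 7 had a TAAT core and 3 a CANCTG match. A TAAT core was in 58.0% and a CANCTG match in 51.4% of all 32851 windows available. An E2F site, searched as TTTGGCGC, TTTCGCGC, TTTCCCGC or TTTGCCGC on either strand, was in none of the 8 genes' windows and in 2.26% of all windows. These matches describe letters in the windows only.

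Control array 1 stood apart from the other 3. On it 76.5% of probes were well above background, against 59.0% to 59.9% on the others, and all 4 Y-linked genes examined (Ddx3y, Kdm5d, Eif2s3y and Uty) were above background there and none elsewhere. Xist was not well above background on that array and was on the other 3. That is the pattern of a male on control array 1 and of females on the other 3, though the labels state no sex. The 75th percentile of signal, to which values are scaled, lay between 361 and 488 intensity units. Rb1 had log2 signals of 0.28 and 0.86 in the controls and -0.48 and -0.90 in the Rb-deficient mice, a difference of -1.26 (standard error, SE, 0.31). Its second probe differed by -1.56, and whether either lies in the deleted stretch is not known here. All 6 beta cell markers (Ins1, Ins2, Iapp, Slc2a2, Ucn3, G6pc2) were above background on every array. So were all 5 alpha, 4 delta and 12 acinar markers. In such bulk RNA, fewer cells of a type and less RNA per cell cannot be told apart.

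None of the 9 factors differed detectably between Rb-deficient and control islets. Mean signal was higher in Rb-deficient islets for 8 of the 9 and lower for Rfx6, with log2 differences from -0.07 to 0.40, at most a 1.32-fold change. The median over the 9 was 0.22, against -0.07 over all genes tested. Adjusted over all 26378 genes by Benjamini-Hochberg, the limma p values of the 9 lay between 0.863 and 0.949. The lowest adjusted p of any gene was 0.163. In a limma fit of each probe on its own, the Rb1 probes had adjusted p of 0.744 and 0.655 (Benjamini-Hochberg). The deleted gene itself was thus not called, so the lack of a call does not show that a gene is unchanged. The share of all genes called was 0%, and 1493 genes, or 5.66%, had an unadjusted p under 0.05, among them 0 of these 9. A higher mean was seen for 41.9% of all genes. Among the 15825 genes tested that had a symbol, as all 9 do, 52.5% had a higher mean and the median difference was 0.015. The Rb-deficient arrays both lay above both controls for 3 of the 9, Mafa, Pax6 and Foxa2, where 15.3% of all genes did, and both below for 0 of the 9, where 20.7% of all genes did. In either direction the groups did not overlap for 3 of the 9 and for 36% of all genes. Of the 15825 genes with a symbol, 3129 had both Rb-deficient values above both controls and 2780 both below.

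**Figure D1:**
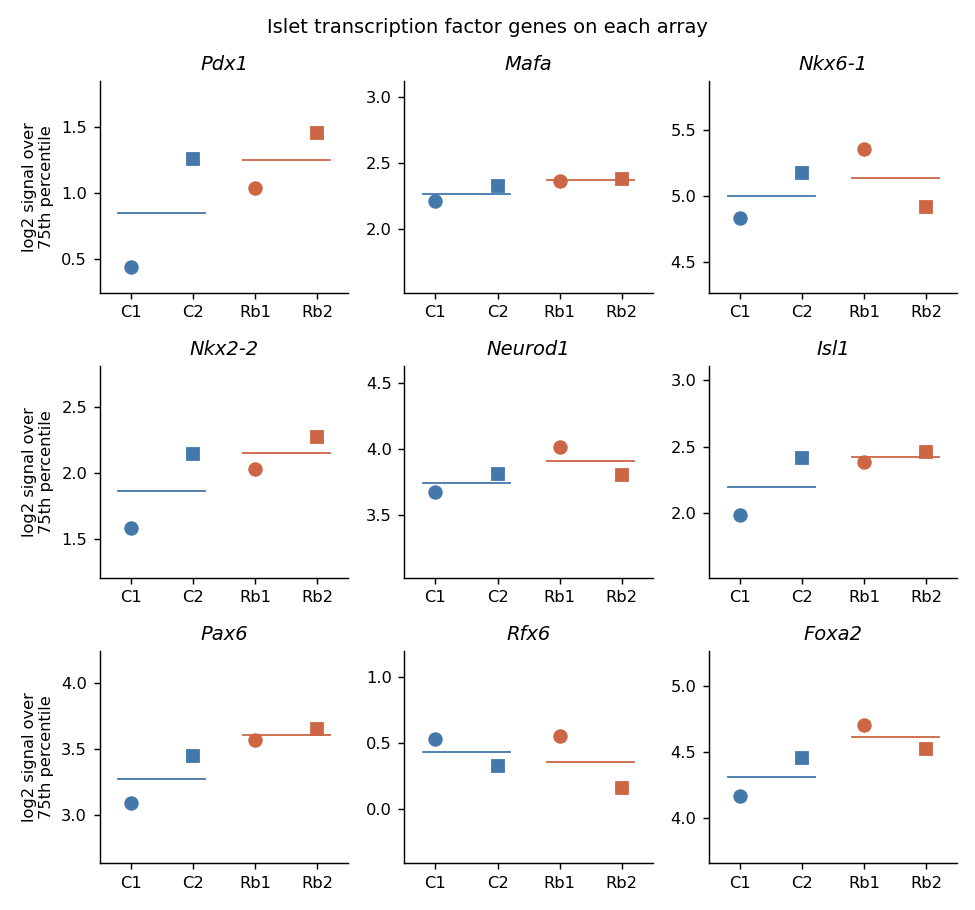
Log2 signal relative to the array's 75th percentile (vertical axis, each panel spanning the same height) on control arrays 1 and 2 (C1, C2, blue) and Rb-deficient arrays 1 and 2 (Rb1, Rb2, orange), for the probe used for each gene. Horizontal lines are group means; control array 1 is lowest in 8 of the 9 panels, Rfx6 being the exception.

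The values below are log2 signals relative to the array's 75th percentile, so a value of 0 is the 75th percentile of the array, and they are compared between arrays within a probe and not between genes. Of the factors that act from the early pancreas on, Pdx1 (chromosome 5) read 0.44 and 1.26 in control mice 1 and 2, and 1.04 and 1.45 in Rb-deficient mice 1 and 2. The groups overlapped, and the controls lay farther apart from each other than the group means did. The means were 0.85 ± 0.58 (SD, n = 2) and 1.25 ± 0.29 (SD, n = 2), a difference of 0.40 (SE 0.37). Foxa2 (chromosome 2) read 4.17 and 4.46 in the controls, and 4.70 and 4.52 in the Rb-deficient mice. Here both Rb-deficient values exceeded both controls, by a margin smaller than the gap between the controls. Its group difference was 0.30 (SE 0.21).

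The factors largely restricted to beta cells had small differences. Mafa (chromosome 15), a basic leucine zipper activator of insulin transcription that marks mature beta cells, had 2.21 and 2.32 in control islets and 2.36 and 2.38 in Rb-deficient islets. The groups did not overlap, but all 4 values lay close together, and the difference was 0.11 (SE 0.18). Nkx6-1 (chromosome 5), a homeodomain factor that keeps beta cells from other endocrine fates, had 4.83 and 5.17 in control islets and 5.35 and 4.92 in Rb-deficient islets. The controls lay on either side of the lower Rb-deficient value, and the difference was 0.14 (SE 0.26). The direction for Nkx6-1 turned when control array 1 was left out (-0.04) or Rb-deficient array 1 was (-0.08).

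Among the factors shared by several endocrine cell types, Pax6 (chromosome 2), a paired-box and homeodomain factor needed for islet hormone expression, read 3.09 and 3.45 in the controls, and 3.56 and 3.64 in the Rb-deficient mice. The groups did not overlap, and the difference of 0.34 (SE 0.22) had the smallest unadjusted p of the 9, 0.199 in limma. Nkx2-2 (chromosome 2), a homeodomain factor of endocrine differentiation, read 1.59 and 2.15 in the controls, and 2.03 and 2.27 in the Rb-deficient mice, and the groups overlapped. Neurod1 (chromosome 2), a basic helix-loop-helix activator that pairs with E proteins on E boxes, read 3.67 and 3.81 against 4.02 and 3.80. Control array 2 thus lay between the Rb-deficient values. The differences were 0.28 (SE 0.28) for Nkx2-2 and 0.17 (SE 0.19) for Neurod1.

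Isl1 (chromosome 13), a LIM-homeodomain factor of all islet endocrine cells, read 1.98 and 2.41 in the controls, and 2.38 and 2.46 in the Rb-deficient mice, with the probe used. Control array 1 alone was low, and the difference was 0.22 (SE 0.23). Rfx6 (chromosome 10), a winged-helix factor downstream of Neurog3 in endocrine differentiation, read 0.53 and 0.33 in the controls, and 0.56 and 0.16 in the Rb-deficient mice. It was the only one of the 9 with a lower mean in Rb-deficient islets, by -0.07 (SE 0.23), and the groups overlapped. Rfx6 was at 0.36 when arrays were scaled to their median, at 0.03 when control array 1 was left out and at 0.12 when Rb-deficient array 2 was.

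The precision of these differences came from 2 arrays per group. The 95% intervals from limma ran from -0.74, for Rfx6, to 1.45, for Pdx1, on the log2 scale. For all 9 genes the interval lay above a 2-fold decrease, as it did for 60.7% of all genes. The largest decrease that an interval reached was 1.67-fold, for Rfx6. On the side of an increase, the intervals of Pdx1 and Nkx2-2 reached 2.73-fold and 2.10-fold, and those of the other 7 stayed under 2-fold in both directions, as did those of 50.7% of all genes. With 1 array left out the intervals widened and reached a 2-fold decrease for 3 genes without control array 1, for 1 without control array 2, and for 2 without each Rb-deficient array in turn, the lowest bound being -1.37.

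**Figure D2:**
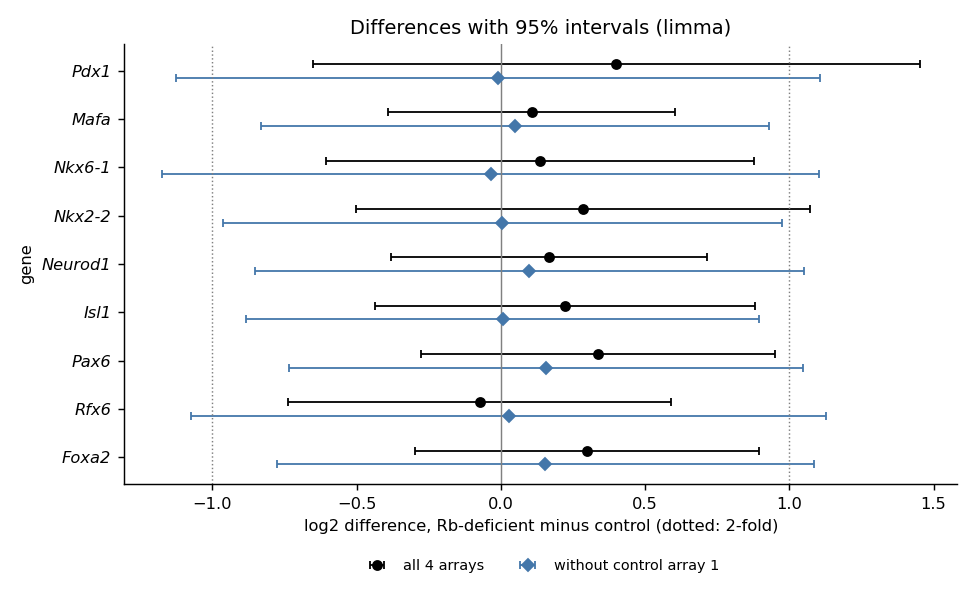
Log2 difference, Rb-deficient minus control, for each gene (vertical axis), with 95% intervals from limma as bars, for all 4 arrays (black circles) and without control array 1 (blue diamonds). Every bar crosses 0, and without control array 1 the points draw in to between -0.04 and 0.16.

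What most of the 9 genes shared across arrays was a lower value on control array 1. It was the lowest of the 4 arrays for 8 of the 9 genes and for 12 of the 14 probes, where 22.8% of all genes tested, and 30.7% of those with a symbol, were lowest there. Among lists given below, it was lowest for 10 of 18 partners and cofactors and 8 of 12 macrophage markers. For the 28 other islet factors and the 17 beta cell genes, it was lowest for 6 in each list. Against each gene's control mean, the median over the 9 was -0.17 on control array 1, 0.17 on control array 2, 0.19 on Rb-deficient array 1 and 0.21 on Rb-deficient array 2. Control array 2 was thus level with both Rb-deficient arrays. For 7 of the 9 genes the 2 control arrays differed by more than the group means did. The same held for 14425 of all 26378 genes tested and for 8907 of the 15825 with a symbol. Without control array 1 the median difference of the 9 was 0.03, with values from -0.04 for Nkx6-1 to 0.16 for Pax6, and without control array 2 it was 0.44. Pdx1 went from 0.40 to -0.01 without control array 1 and to 0.81 without control array 2. Control array 1 is the array with more probes above background and with Y-linked transcripts, and all 12 acinar markers were highest on it. The part of any of these traits in these values was not tested.

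The 3 genes measured by several probes showed how far probes of a gene agree. Pax6 had 4 probes, all with a higher mean in Rb-deficient islets, and their log2 differences ran from 0.09 to 0.34. The 2 probes of Nkx2-2, designed on different transcripts, differed by 0.28 and 0.03 in the same direction. The 2 probes of Isl1 were designed on the same transcript and went opposite ways. The second read 2.21 and 2.38 in the controls, and 2.17 and 1.86 in the Rb-deficient mice, both below both controls, with a difference of -0.28 (SE 0.21). Isl1 therefore has no settled direction here, and in a limma fit of each probe on its own the lowest adjusted p (Benjamini-Hochberg) of the 14 was 0.863.

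**Figure D3:**
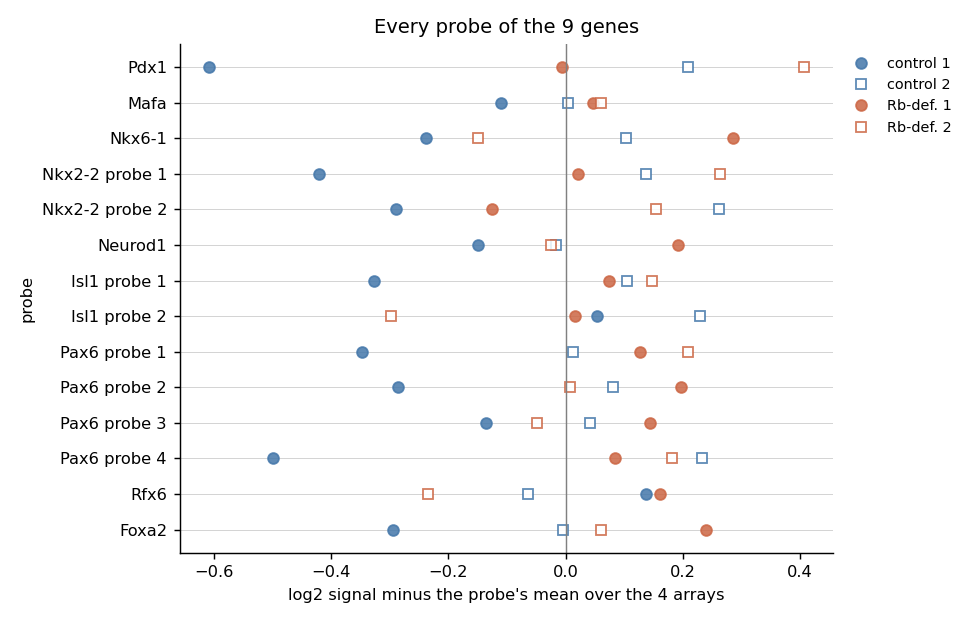
Each of the 14 probes (vertical axis) with its log2 signal on the 4 arrays minus its own mean over them (horizontal axis); filled symbols are replicate 1 and open symbols replicate 2, blue control and orange Rb-deficient. Control array 1 is leftmost for 12 of the 14 probes, the exceptions being the second Isl1 probe and Rfx6.

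Pdx1 had the largest difference, and its pattern was set against those of all other genes by the distance between log2 values centred on each gene's mean over the 4 arrays. Among the nearest genes with a symbol were Rab19 and Vat1l, at distances of 0.055 and 0.060 log2 units. Among the other 8 factors Nkx2-2 was nearest to Pdx1, at 0.25, and Rfx6 farthest, at 1.03.

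A list of 17 beta cell genes, which holds known targets of these factors, did not differ detectably either. Of these, 7 were higher and 10 lower in mean, with a median of -0.09, and limma called 0, with 1 at an unadjusted p under 0.05. The insulin genes Ins1 and Ins2, whose promoters bind Pdx1, Neurod1 and Mafa, read 9.91 and 9.72 in the controls against 9.81 and 9.36, and 10.5 and 10.3 against 10.4 and 9.89. In both, Rb-deficient array 2 was the lowest and the groups overlapped, with differences of -0.23 and -0.22. The 75th percentile to which values are scaled was highest on that array, at 488 intensity units. Its part in these values was not tested. Iapp, which encodes the co-secreted peptide amylin, differed by -0.22, and the glucose transporter gene Slc2a2 by 0.16. Ucn3, a peptide of mature beta cells, differed by 0.11, and the zinc transporter gene Slc30a8 by 0.28. G6pc2, a glucose-6-phosphatase of islets, differed by -0.34. The prohormone convertase genes Pcsk1 and Pcsk2 differed by 0.22 and 0.10, and the incretin receptor genes Glp1r and Gipr by -0.01 and -0.33.

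On both Rb-deficient arrays 2 of the 17 beta cell genes lay below both controls, where 20.7% of all genes did. Above both controls lay 3 of the 17 (Gjd2, Slc30a8 and Nnat), where 15.3% of all genes did. The channel subunit genes Abcc8 and Kcnj11 were lower on both Rb-deficient arrays than on both controls, by -0.40 and -0.35. The gap junction gene Gjd2 was higher on both, by 0.40, and Ero1b, an oxidase of the endoplasmic reticulum, differed by -0.24. The exception in size was Nnat, which encodes neuronatin, a small membrane protein of the endoplasmic reticulum. It read -1.99 and -0.64 in the controls, and 0.29 and 1.45 in the Rb-deficient mice. Its groups did not overlap, and the difference of 2.18 (SE 0.67), a 4.53-fold change, had an adjusted p of 0.824 in limma (Benjamini-Hochberg).

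Other islet and pancreatic transcription factors had a wider range than the 9. Of 31 listed, 28 passed the filter (Pax4, Pou3f4 and Foxa1 did not), and 12 were higher and 16 lower, with a median of -0.11 and a range from -1.78 to 0.40. On both Rb-deficient arrays 11 of the 28 lay below both controls and 4 above, where 20.7% and 15.3% of all genes did. limma called 0 of them, with 4 at an unadjusted p under 0.05 and a lowest adjusted p (Benjamini-Hochberg) of 0.514. Irx1 and Irx2 are homeobox factors of alpha cells. Irx1 read -0.10 and 0.66 in the controls, and -0.39 and -2.61 in the Rb-deficient mice, a difference of -1.78 (SE 0.86) in which Rb-deficient array 2 lay far below the other 3 arrays. Irx2 read -1.12 and -0.48 against -1.53 and -1.99, a difference of -0.96 (SE 0.33).

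Nr5a2, Gata4 and Sox9, factors of exocrine or progenitor cells, also had lower means. Nr5a2, a nuclear receptor of acinar cells, read -0.42 and -0.63 in the controls, and -1.83 and -2.25 in the Rb-deficient mice. Both Rb-deficient values were far below both controls, and the difference was -1.51 (SE 0.24). Gata4, a zinc finger factor of pancreatic progenitors and acinar cells, and Sox9, a factor of ducts and progenitors, differed by -1.17 and -0.97. Whether any of these differs from the 9 beta cell factors in its response was not tested.

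Marker genes of the same cell types were read beside these factors. Of 5 alpha markers, which include Irx2, 4 were lower on both Rb-deficient arrays than on both controls, where 20.7% of all genes were, and their summed signal was 795 to 843 times the 75th percentile in control and 321 to 722 in Rb-deficient islets. Gcg, the glucagon gene, read 9.34 and 9.44 in the controls, and 9.26 and 7.96 in the Rb-deficient mice. Of 12 acinar markers all were lower in mean, with summed signals of 6360 to 7733 and 3192 to 5614, and of 7 ductal markers 6 were lower, with 14.3 to 20.8 and 11.0 to 14.7. The beta marker sum was 3023 to 3411 in control and 2298 to 3266 in Rb-deficient islets. The delta sums were 658 to 687 and 507 to 677. Rb-deficient array 2 had the lowest beta and delta sums and the highest 75th percentile, and the part of that scaling was not tested. Sst, the somatostatin gene, had 9.37 and 9.26 against 9.31 and 8.87, and Ppy, the pancreatic polypeptide gene, 7.36 and 8.17 against 6.30 and 9.28. Of 12 macrophage markers 11 were higher in mean, with a median log2 difference of 0.78. Against each gene's control mean, their median was 0.29 on Rb-deficient array 1 and 1.33 on Rb-deficient array 2. On both Rb-deficient arrays 6 were higher than on both controls, with 0 lower on both, where 15.3% and 20.7% of all genes were. Their summed signals overlapped, with 46.9 to 48.2 in control and 47.5 to 53.1 in Rb-deficient islets, and the brightest probe in these sums, that of Itgam, was the one with a lower mean, by -0.27. No marker of these lists was below background on all arrays, and their part in the values of the 9 factors was not tested.

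Partners and cofactors of the 9 did not differ detectably either. Of 18 genes 13 were higher and 5 lower, with a median of 0.14, and limma called 0, with 0 at an unadjusted p under 0.05. On both Rb-deficient arrays 6 of the 18 lay above both controls and 2 below, where 15.3% and 20.7% of all genes did. Tle3, a corepressor recruited by Nkx2-2, and Smarca4, a chromatin remodelling ATPase, were higher on both Rb-deficient arrays than on both controls, by 0.31 and 0.23, and so was Tcf4, an E protein of the kind that pairs with Neurod1, by 0.26. The deacetylase gene Hdac1 and the acetyltransferase gene Crebbp differed by 0.34 and -0.22 with overlapping groups.

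**Figure D4:**
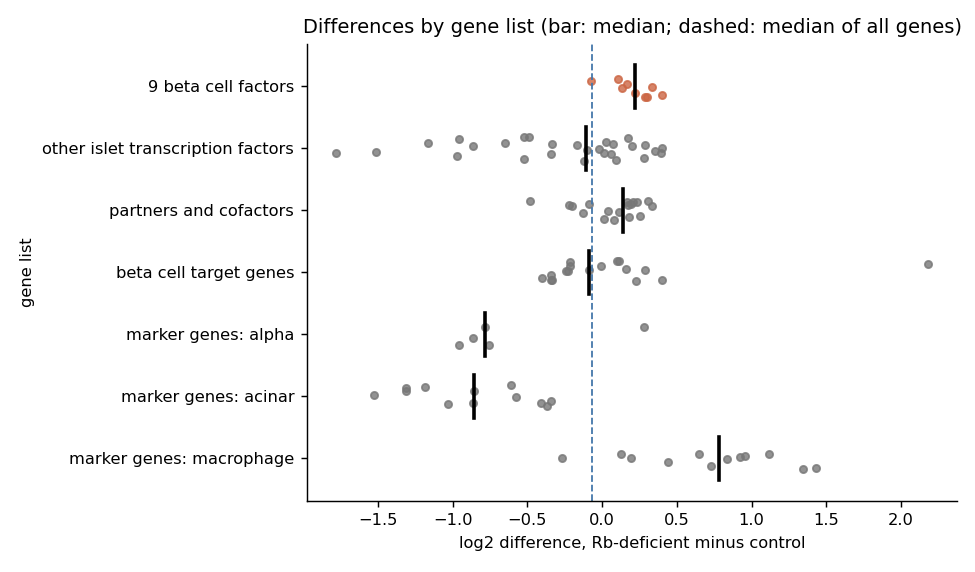
Log2 difference, Rb-deficient minus control, of each gene (points) in 7 lists (vertical axis), with the list's median as a black bar and the median of all genes tested as a dashed line. The 9 beta cell factors (orange) span -0.07 to 0.40, and the other islet transcription factors -1.78 to 0.40.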

How the data were processed

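Islet RNA of 4 mice was hybridised to 4 one-colour arrays on 1 slide. Per the labels' protocols, RNA came from an RNeasy kit and was amplified and labelled by the Pico WTA System (Ovation). The deposited scanner files give an intensity for each spot. These were extracted, per the file headers, with Agilent Feature Extraction 12.0.3.1, and the design was annotated on mm9. Flag columns of other kinds mark spots above background or outlying, as deposited. The deposited value table equals the processed intensity times a constant per array, and how the constants were set is not given in the sources used here.

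Values are log2 of the processed signal over its 75th percentile among non-control probes of the array, without outlier-marked spots (64 to 93 per array). No spot was saturated. Unversioned accessions were looked up in a RefSeq table of GRCm38.p6, which named 32994 of 56605 probes. A probe was kept when well above background on both arrays of a group, and a gene took its probe with the highest mean. The test was limma 3.58.1 under R 4.3.3 (two-sided, no covariates, Benjamini-Hochberg, threshold 0.05). The fit was tested on simulated data. With 2 against 2 arrays the smallest exact permutation p of a single value is 0.333, so none was computed. The number of arrays limits precision. The p values set a group difference against the spread between mice within a group, which limma moderates by a spread estimated over all genes. That spread includes the difference between the control arrays. Alternatives are given in the closing section.

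The genes and lists were chosen with earlier results of these data known. The text names all 9 factors, Rb1, all target genes, the hormone genes, the 6 largest differences in the list of other factors and in that of partners among probes above background on all arrays, and the 3 genes nearest in pattern to the factor with the largest difference. Y-linked genes and Xist, the list members named as exceptions and the neighbouring transcripts in the closing section fall outside that rule and were chosen after values were seen. Some genes that the rule takes in are not reported here. The normexp alternative used the median spot signal, since the files hold no mean signal.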

Additional observations from a re-analysis of the deposited data

How the results depend on the processing

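No alternative called any of the 9 factors (limma, Benjamini-Hochberg). Over 122 repeats of their differences under other settings and with other probes, 113 kept their direction and 9 turned. Some of these repeats could not turn. With no filter on dim probes or with probes above background on all arrays, each difference equalled that of the main setting. So it did with the replicate number as a block. Averaging probes leaves a gene with a single probe unchanged, so the 113 do not measure how robust the directions are. Isl1 turned to -0.26 with normexp background correction, -0.030 with a gene's probes averaged and -0.28 in its other probe. With an array left out, Nkx6-1 ran from -0.082 (no Rb-deficient array 1) to 0.35 and was -0.036 with control array 1 out, Pdx1 ran from -0.0084 (no control array 1) to 0.81, and Rfx6 from -0.27 to 0.12 (no Rb-deficient array 2), at 0.027 with control array 1 out. Rfx6 was 0.36 with median scaling. Median scaling adds 0.44 to every difference, which moves the median of all genes from -0.07 to 0.37 and that of the 9 from 0.22 to 0.66. The median of the 9 ran from 0.027 (no control array 1) to 0.44 (no control array 2) with an array left out. Among all genes limma called 0 in the main setting, 480 with median scaling, and 0 to 4091 with an array left out, the 4091 without control array 2, and the cause was not tested. With the replicate number as a block, the median of the 9 was 0.22 and 0 genes were called, with 3160 genes at an unadjusted p under 0.05. The shared numbers are not known to pair mice, and deviations of same-numbered arrays from their group means correlated at 0.30 over genes. A fit with slide as a block was not run, since all arrays lie on 1 slide. The fit of each probe on its own was chosen after seeing the data. All 14 probes were above background on every array.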

Other observations

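Transcripts that the RefSeq table lists within 2000 bases of the 9 genes were read where they had a probe that passed the filter. Plut, a long noncoding RNA listed beside Pdx1, had log2 signals of 0.40 and 1.10 in the controls, and 2.23 and 1.43 in the Rb-deficient mice. Both Rb-deficient values lay above both controls, a difference of 1.07 (SE 0.42), or 2.11-fold, where the Pdx1 probe differed by 0.40. In a limma fit of each probe on its own the adjusted p of Plut was 0.863 (Benjamini-Hochberg). Pax6os1, listed beside Pax6, read 0.63 and 1.56 in the controls, and 1.14 and 1.62 in the Rb-deficient mice. Elp4, also beside Pax6, differed by 0.11, and 6430503K07Rik, beside Nkx2-2, by 0.20, both with overlapping groups. Control array 1 was the lowest array for Plut, Pax6os1 and 6430503K07Rik and not for Elp4.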
